A study of Arabidopsis thaliana with 9 samples.

Results

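The genes described here are the 42 nuclear genes of Arabidopsis thaliana that encode the chlorophyll-binding antenna proteins and the nuclear subunits of the photosystems, out of 33518 genes measured. They were chosen by name and locus: 6 LHCA genes (antenna of photosystem I), 14 LHCB genes (antenna of photosystem II), 12 PSA genes (photosystem I subunits) and 10 PSB genes (photosystem II subunits). All 42 reached at least 5 CPM (reads on the gene per 1e+06 reads of the library, after scaling) in each of the 9 libraries, so none was lost to a filter on low values. Each library holds polyadenylated RNA of whole seedlings, pooled from 3 experiments, and there is 1 library for each genotype and treatment. The genotypes were aba2-1, a point mutant of the abscisic acid synthesis gene ABA2, p5cs1-4, a T-DNA insertion mutant of the proline synthesis gene P5CS1, and the wild type Col-0 (WT) with which both were compared. Seedlings were 7 days old when moved, grew in continuous light without added sugar, and were collected after 96 h on control plates (-0.25 MPa), after 96 h on plates with polyethylene glycol (-1.2 MPa, labelled stress), or after that stress and a further 10 h on control medium (labelled release). Pooled RNA and 1 library per group mean that no difference between a pair of libraries has a replicate check.

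Light energy enters photosynthesis through the LHC proteins, which carry chlorophyll and xanthophylls and pass excitation to the reaction centres. LHCB1, LHCB2 and LHCB3 make up the LHCII trimers, LHCB4, LHCB5 and LHCB6 are the monomeric antenna proteins that link the trimers to the photosystem II core, and LHCA1 to LHCA4 form the belt around photosystem I. The chlorophyll-carrying core subunits are encoded in the plastid, while the nucleus encodes the subunits that dock ferredoxin and plastocyanin on photosystem I and those that shield the oxygen-evolving manganese cluster of photosystem II. In seedlings these nuclear genes are among the most highly expressed of green tissue and are controlled by light, the circadian clock and the state of the chloroplast.

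The treatment names need a caution before the values. RAB18, a dehydrin gene induced by abscisic acid and water loss, had 66.2 CPM in the aba2-1 labelled release, 5.15 CPM in the aba2-1 labelled stress and 252 CPM in the aba2-1 control library. In p5cs1-4 it had 4778, 81.4 and 22.4 CPM, and in WT 4950, 13.9 and 31.4 CPM, in the same order of treatments. PRODH1, a proline breakdown gene that is usually low under water stress, had 20.1 to 33.6 CPM in the 3 labelled release libraries, 188 to 401 CPM in the labelled stress libraries and 125 to 261 CPM in the controls. These levels go against the labels of release and stress. The deposited tables also carry the letter R for labelled stress and S for labelled release. The labels may thus be swapped, which would exchange stress and release in every ratio below, and each direction holds for the library labelled so. The aba2-1 control library stood apart from the other controls in RAB18 and in P5CS1, which had 1389, 91.2 and 634 CPM in aba2-1 labelled release, labelled stress and control. P5CS1 had 1199, 174 and 125 CPM in p5cs1-4 labelled release, labelled stress and control, against 3918, 74.1 and 195 CPM in WT, so reads on the gene remained in the mutant's libraries; where they lie relative to the insertion was not analysed here. Libraries held between 4898426 and 18273148 reads on genes. Intervals below cover counting error only, since each group is 1 library. The PCR carried no molecular identifiers, so duplicates count as separate reads and the intervals may be too narrow.

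Because the 5 LHCB1 genes are close copies, their sequences decide how far their reads can be told apart. The same stretch of coding sequence is shown for each (TAIR10.1 genome of RefSeq, 5′ to 3′). It was picked, among the windows scanned, as the one where the copies differ at the most positions. It is thus not typical of the whole coding sequence. Capitals mark bases that differ from LHCB1.3, the most abundant copy.
LHCB1.1: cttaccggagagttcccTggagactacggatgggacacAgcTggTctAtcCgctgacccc
LHCB1.2: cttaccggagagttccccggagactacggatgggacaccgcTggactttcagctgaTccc
LHCB1.3: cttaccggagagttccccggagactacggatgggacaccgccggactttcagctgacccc
LHCB1.4: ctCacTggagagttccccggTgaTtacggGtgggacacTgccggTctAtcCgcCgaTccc
LHCB1.5: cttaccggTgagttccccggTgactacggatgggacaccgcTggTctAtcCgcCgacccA
Over these 60 bases LHCB1.4 differed from LHCB1.3 at 11 positions, LHCB1.5 at 8, LHCB1.1 at 6 and LHCB1.2 at 2. Over the whole coding sequence identity to LHCB1.3 was 96.4% for LHCB1.2, 96.1% for LHCB1.1, 89.3% for LHCB1.5 and 86.8% for LHCB1.4. The longest run of identical bases was 122 for LHCB1.4 and LHCB1.5, 119 for LHCB1.1 and LHCB1.3 and 116 for LHCB1.1 and LHCB1.2. In the other pairs it was at most 74 bases. LHCB1.2, LHCB1.1 and LHCB1.3 lie side by side on chromosome 1 (TAIR10.1, chr1:10472280-10473502, chr1:10474656-10475969 and chr1:10477885-10479114), with no annotated gene between them. LHCB1.5 and LHCB1.4 lie back to back on chromosome 2 (chr2:14522524-14523568 and chr2:14524607-14525918), with 1038 bases between them. LHCB2.2 and LHCB2.1 also share chromosome 2 (chr2:1799234-1800472 and chr2:1822990-1824480) and are 96.6% identical, whereas LHCB2.3 on chromosome 3 (chr3:10255906-10257489) is 85.5% identical to LHCB2.1. Reads that map to several places made up at most 24.6% of the reads of any LHCB1 copy and at most 37.8% of those of LHCB2.1 and LHCB2.2, and the LHCB1 copies are treated as uncertain throughout. No member exceeded a shared fraction of 0.5. An annotated gene on the other strand overlaps 16 of the 42 members, and whether counting used strand was not given in the sources used here.

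The stretch of 250 bases before the annotated start is shown for a pair of LHCB1 copies and a pair of LHCB2 copies. LHCB1.4 and LHCB2.3 varied most of all members, and LHCB1.5 and LHCB2.1 varied less. For labelled release over control the log2 ratios of LHCB1.5 were 0.15 in aba2-1, -1.23 in p5cs1-4 and -1.18 in WT. Those of LHCB2.1 were -0.02, -1.22 and -1.19. The windows are chr2:14524357-14524606 on the plus strand for LHCB1.4, chr2:14523569-14523818 on the minus strand for LHCB1.5, chr2:1824481-1824730 on the minus strand for LHCB2.1 and chr3:10255656-10255905 on the plus strand for LHCB2.3 (TAIR10.1). Capitals mark the G-box CACGTG, the I-box GATAAG and the CCA1 site AAAAATCT, on either strand.
LHCB1.4: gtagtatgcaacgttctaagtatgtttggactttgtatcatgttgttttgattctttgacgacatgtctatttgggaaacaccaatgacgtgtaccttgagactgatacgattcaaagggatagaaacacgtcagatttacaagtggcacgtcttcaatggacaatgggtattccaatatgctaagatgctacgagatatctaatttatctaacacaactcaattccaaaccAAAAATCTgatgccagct
LHCB1.5: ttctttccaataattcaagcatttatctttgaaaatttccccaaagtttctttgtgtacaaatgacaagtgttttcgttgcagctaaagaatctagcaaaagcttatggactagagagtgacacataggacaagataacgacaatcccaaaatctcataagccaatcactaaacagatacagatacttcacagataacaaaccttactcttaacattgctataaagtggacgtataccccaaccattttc
LHCB2.1: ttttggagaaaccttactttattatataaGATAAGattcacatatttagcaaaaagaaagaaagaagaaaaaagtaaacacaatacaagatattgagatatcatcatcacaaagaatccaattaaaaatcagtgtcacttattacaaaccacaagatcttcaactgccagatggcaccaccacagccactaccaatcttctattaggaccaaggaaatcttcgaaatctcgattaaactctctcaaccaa
LHCB2.3: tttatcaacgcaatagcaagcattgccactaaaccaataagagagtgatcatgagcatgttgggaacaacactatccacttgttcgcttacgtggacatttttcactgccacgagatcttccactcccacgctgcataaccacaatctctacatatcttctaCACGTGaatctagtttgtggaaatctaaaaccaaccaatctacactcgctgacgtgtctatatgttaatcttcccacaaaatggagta
LHCB2.3 holds a G-box at position -88 from its start, LHCB2.1 an I-box at position -221, LHCB1.4 a CCA1 site at position -18 and LHCB1.5 none of these letters. Across the 42 members, 8 windows held the G-box (19.0%), against 6.49% of the windows of all 27443 protein-coding genes. The I-box stood in 9 member windows (21.4%, against 12.3% of all), the CCA1 site in 5 (11.9%, against 6.69%) and the evening element AAAATATCT in 1 (2.38%, against 2.36%). The CCAAT box (CCAAT) stood in 27 windows (64.3%, against 46.0%), among them 13 of 14 LHCB windows, and the TATA box (TATAAA) in 19 (45.2%, against 47.3%). All 6 motifs were read on both strands, and a match is no more than these letters. The 8 genes with a G-box were LHCA4, LHCB2.3, LHCB4.1, LHCB6, PSAE2, PSAH2, PSBQ1 and PSBQ2. Their median log2 ratio of labelled release over control was -0.35 in aba2-1, -1.58 in p5cs1-4 and -1.40 in WT, beside -0.34, -1.37 and -1.25 for the 34 members without one. For the I-box the medians were -0.28 in aba2-1, -1.83 in p5cs1-4 and -1.27 in WT in the 9 members with it, beside -0.34, -1.35 and -1.25 in the 33 without it. For the CCA1 site they were -0.59, -1.69 and -1.36 in the 5 members with it, beside -0.34, -1.32 and -1.25 in the 37 without it. Members with and without each of these motifs overlapped in every genotype.

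In their summed level the 42 genes took a large part of each library. They held 3.63% of reads on genes in the aba2-1 labelled release library, 2.69% in its labelled stress and 3.95% in its control library. In p5cs1-4 they held 2.62%, 3.47% and 6.08% in labelled release, labelled stress and control, and in WT 3.60%, 6.93% and 7.31%. The WT control and labelled stress libraries and the p5cs1-4 control were thus high, while the other 6 libraries lay between 2.62% and 3.95%. The antenna of photosystem II was the largest of the 4 groups in every library, with 41.0% to 46.1% of the members' reads, followed by the PSB genes with 21.3% to 25.3%, the PSA genes with 16.3% to 21.2% and the LHCA genes with 12.5% to 16.1%. The 4 groups therefore kept similar proportions while their sum changed. In WT the share of labelled release over control was 0.469 for LHCA, 0.516 for LHCB, 0.484 for PSA and 0.470 for PSB genes. The corresponding ratios in p5cs1-4 were 0.450, 0.442, 0.373 and 0.450, and in aba2-1 they were 1.09, 0.956, 0.825 and 0.830. In whole-seedling RNA, fewer green cells and less of these transcripts per cell cannot be told apart. Root markers, 16 genes in all, summed to 47.3 to 79.8 CPM in labelled release, 49.8 to 110 CPM in labelled stress and 31.0 to 69.4 CPM in control libraries, with 4 of the 16 at 0 in the WT control, 1 at 0 in the WT labelled stress and in the aba2-1 control, and none at 0 elsewhere. Between 1 (WT control) and 8 (p5cs1-4 labelled stress) of the 16 were over 5 CPM in a library, so the sums rest on few genes. The median of the 16 was 0.58 CPM and 4.66 CPM in these libraries. The part of the root markers in the results was not tested. The 10 seed markers summed to 1.63 to 7.84 CPM.

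**Figure D1:**
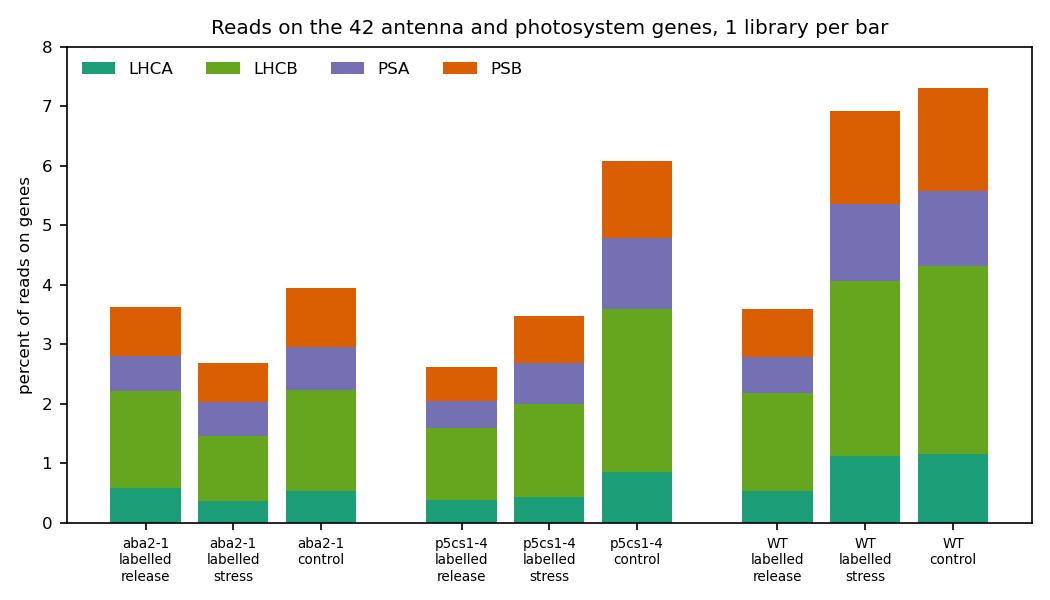
Percent of reads on genes (y axis) that fell on the LHCA, LHCB, PSA and PSB genes, stacked, in each of the 9 libraries (x axis, 1 library per bar). The bars reach 7.31% in the WT control and 2.62% in the p5cs1-4 labelled release library.

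Per length, in RPKM, LHCB1.3 was the most abundant member in all 9 libraries, with 2925 to 8700 RPKM. PSBR (AT1G79040), a small photosystem II protein near the oxygen-evolving complex, ranked 2 or 3 among the 42, with 1463 to 4633 RPKM, and LHCB1.5 ranked 2 to 4, with 1382 to 4274 RPKM. LHCB4.3 (AT2G40100), the minor form of the CP29 antenna protein, was last in every library at 6.92 to 19.5 RPKM. LHCA5 (AT1G45474) and LHCA6 (AT1G19150), which join the NDH complex to photosystem I, ranked 40 or 41 at 31.2 to 82.0 and 23.4 to 88.1 RPKM. The middle of the order moved more: LHCB1.4 ranked between 14 and 38, and PSBX (AT2G06520), a small membrane subunit of photosystem II, between 2 and 12. Of the 50 genes with the highest RPKM in a library, 17, 13 and 13 were members in aba2-1 labelled release, labelled stress and control. The counts were 6, 16 and 23 in p5cs1-4 and 10, 25 and 25 in WT.

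Between labelled release and control, most members were lower by 2-fold or more in p5cs1-4 and WT and few in aba2-1. The aba2-1 control was itself low, with 3.95% of reads on the members, against 6.08% in the p5cs1-4 and 7.31% in the WT control. In labelled release the shares were 3.63%, 2.62% and 3.60% in aba2-1, p5cs1-4 and WT. How far the aba2-1 control sets this contrast was not tested. In p5cs1-4, 39 of 42 members were at least 2-fold lower and none higher, in a library pair where 11.8% of the genes with at least 5 CPM were at least 2-fold lower and 8.40% higher. In WT 35 of 42 were at least 2-fold lower and none higher, against 14.0% of genes lower and 12.7% higher. In aba2-1 3 of 42 were at least 2-fold lower and none higher, against 5.62% of genes lower and 4.56% higher. The members' count was thus near the background. It was 0 on the deposited RPKM scale, for which no share of all genes is given. The median log2 ratio of the members was -1.37 in p5cs1-4, -0.34 in aba2-1 and -1.26 in WT, while that of all genes lay within 0.02 of 0 in each. All 42 members had a ratio below 0 in p5cs1-4 and in WT, and 36 in aba2-1.

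By group, the median log2 ratios of labelled release over control in p5cs1-4 were -1.26 for LHCA, -1.35 for LHCB, -1.60 for PSA and -1.34 for PSB genes. In WT they were -1.28, -1.22, -1.27 and -1.29, so the antenna and both photosystems had close medians. In aba2-1 they were -0.23, -0.18, -0.45 and -0.36. The lowest ratios in p5cs1-4 were LHCB1.4 at -4.43, LHCB2.3 at -2.81, PSBQ1 at -2.67 and PSBY at -2.33, and the highest LHCB4.3 at -0.74, LHCB2.2 at -0.94, PSBO2 at -0.96 and LHCA2 at -1.02. The same 4 genes were lowest in WT, LHCB1.4 at -4.33, LHCB2.3 at -3.10, PSBQ1 at -1.92 and PSBY at -1.86, while PSBS at -0.62, LHCB1.3 at -0.63, PSAD2 at -0.68 and PSAD1 at -0.78 were highest. In aba2-1 the lowest were PSBQ1 at -1.11, PSBX at -1.10, LHCB6 at -1.08 and LHCB1.4 at -0.91, and the highest LHCB1.1 at 0.30, LHCB4.3 at 0.22, LHCB1.5 at 0.15 and LHCB5 at 0.10.

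**Figure D2:**
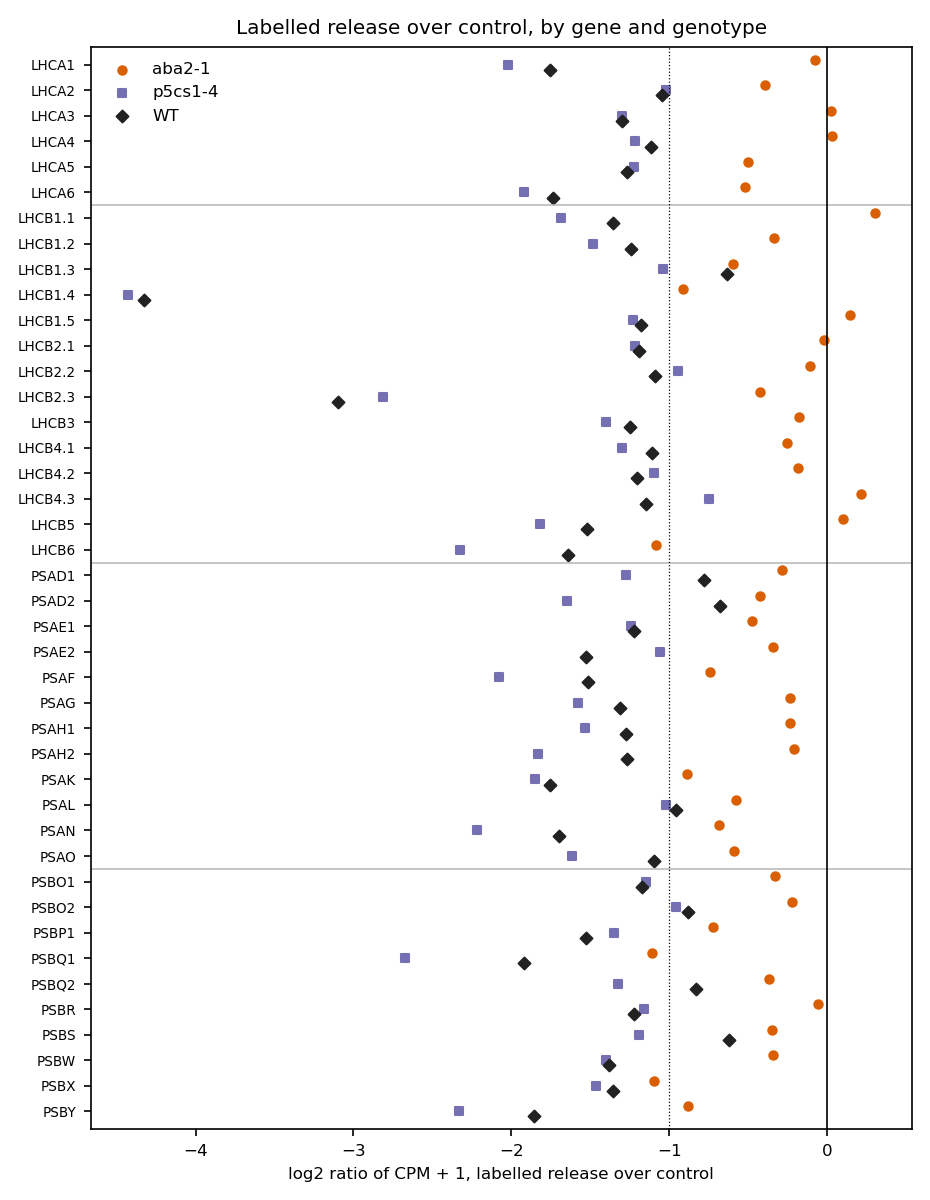
Log2 ratio of CPM + 1 of the labelled release over the control library of the same genotype (x axis) for each of the 42 genes (y axis, grouped as LHCA, LHCB, PSA and PSB), with aba2-1 as circles, p5cs1-4 as squares and WT as diamonds. The dotted line marks 2-fold lower; 39 p5cs1-4, 35 WT and 3 aba2-1 points lie at or left of it.

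LHCB1.4 (AT2G34430) varied most among the members, 40.2-fold between its highest and lowest library. It had 152, 135 and 287 CPM in aba2-1 labelled release, labelled stress and control, 58.7, 211 and 1285 CPM in p5cs1-4, and 117, 1439 and 2361 CPM in WT. Only the WT control, WT labelled stress and p5cs1-4 control libraries were above 1000 CPM. Labelled release was 21.9 times lower than control in p5cs1-4 (exact 95% interval 20.5 to 23.4), 1.88 times lower in aba2-1 (1.76 to 2.02) and 20.2 times lower in WT (19.0 to 21.6). With reads that map to 1 place only, the log2 ratios were -4.42, -0.88 and -4.29 in the same order, close to those from all reads. LHCB2.3 (AT3G27690), a minor LHCII gene, was alike in this: it had 79.2, 68.3 and 107 CPM in aba2-1, 42.3, 109 and 304 CPM in p5cs1-4, and 50.9, 251 and 443 CPM in WT, for labelled release, labelled stress and control. Its labelled release level was 7.17 times lower than control in p5cs1-4 (6.61 to 7.80), 1.35 times lower in aba2-1 (1.21 to 1.49) and 8.70 times lower in WT (7.84 to 9.67).

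The other copies of these families moved less, among them LHCB1.5, the back-to-back neighbour of LHCB1.4. LHCB1.5 (AT2G34420) had 2283, 1411 and 2061 CPM in aba2-1 labelled release, labelled stress and control, 1767, 1577 and 4134 CPM in p5cs1-4, and 2333, 4764 and 5277 CPM in WT. LHCB1.3 (AT1G29930) had 4556, 2982 and 6877 CPM in aba2-1, 4834, 5209 and 9925 CPM in p5cs1-4, and 6912, 8966 and 10731 CPM in WT. Both genes were lower in labelled release than in control in p5cs1-4 and WT, by less than LHCB1.4. LHCB1.1 (AT1G29920) ranged from 488 to 1844 CPM and LHCB1.2 (AT1G29910) from 853 to 3017 CPM over the libraries. LHCB1.4 accounted for 1.74%, 2.17% and 2.60% of the summed LHCB1 RPKM in aba2-1 labelled release, labelled stress and control, 0.763%, 2.38% and 6.92% in p5cs1-4 and 1.07%, 7.59% and 10.6% in WT. LHCB2.3 made up 7.68%, 12.5% and 9.69% of LHCB2 RPKM in aba2-1, 6.60%, 11.9% and 19.3% in p5cs1-4 and 5.16%, 12.8% and 17.6% in WT, while LHCB2.1 (AT2G05100) stayed between 43.3% and 48.5% and LHCB2.2 (AT2G05070) between 37.4% and 47.7%.

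A similar split appeared within the PsbQ proteins, extrinsic subunits that stabilise the oxygen-evolving complex. PSBQ1 (AT4G21280, chr4:11334352-11335815, TAIR10.1) had 199, 292 and 430 CPM in aba2-1 labelled release, labelled stress and control, 128, 330 and 823 CPM in p5cs1-4, and 222, 856 and 843 CPM in WT. PSBQ2 (AT4G05180, chr4:2671523-2673243) had 482, 383 and 621 CPM, 381, 501 and 956 CPM, and 606, 1051 and 1078 CPM in the same libraries. In labelled release PSBQ1 was further below its control than PSBQ2 in each genotype. For labelled stress this did not hold in aba2-1 and WT. The PSBQ1 share of the summed PSBQ RPKM was 32.1%, 27.8% and 29.6% in the aba2-1, p5cs1-4 and WT labelled release libraries. In their controls it was 44.3%, 49.7% and 47.3%. The labelled release and control ranges of this share did not overlap. Neither copy had reads that map to several places.

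**Figure D3:**
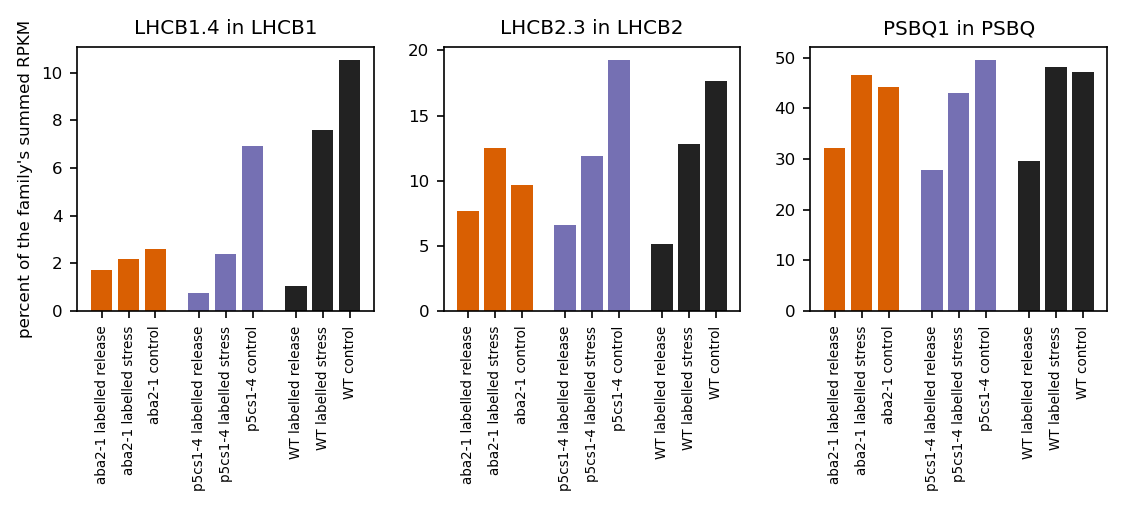
Share of the summed RPKM of a family (y axis, percent) held by LHCB1.4, LHCB2.3 and PSBQ1 in the 9 libraries (x axis), with aba2-1 in orange, p5cs1-4 in violet and WT in black. LHCB1.4 reaches 10.6% of LHCB1 in the WT control and 0.763% in the p5cs1-4 labelled release library.

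The remaining families kept steadier proportions, apart from PSAH. PSBO1 (AT5G66570), the main form of the manganese-stabilising protein, held 76.6% to 82.7% of PSBO RPKM in the 9 libraries, with PSBO2 (AT3G50820) making up the rest. PSAD1 (AT4G02770) held 58.9% to 69.0% of PSAD, with PSAD2 (AT1G03130), and PSAE1 (AT4G28750) 70.6% to 80.2% of PSAE, with PSAE2 (AT2G20260), both families docking ferredoxin on the stromal side of photosystem I. PSAH1 (AT3G16140), part of the site where LHCII docks on photosystem I in state transitions, held 43.4% to 59.9% of PSAH, with 20.4% to 29.2% of its reads shared with other places, and PSAH2 (AT1G52230) the rest. By reads that map to 1 place only, PSAH1 held 36.8% (aba2-1 labelled stress) to 54.4% (WT control) of the family's reads. Which of the PSAH copies was larger thus changed between libraries. LHCB4.1 (AT5G01530) held 50.8% to 60.4% of LHCB4, LHCB4.2 (AT3G08940) 38.6% to 48.5% and LHCB4.3 at most 1.09%.

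Of the members with no second copy here, LHCA2 (AT3G61470), LHCA3 (AT1G61520) and LHCA4 (AT3G47470) of the photosystem I belt ranged over the 9 libraries from 677 to 3134, from 794 to 2764 and from 1185 to 3999 CPM. All 3 were highest in the WT control and lowest in the aba2-1 labelled stress library. LHCB3 (AT5G54270), the third protein of the LHCII trimers, ranged from 743 to 2146 CPM, and LHCB5 (AT4G10340), the CP26 antenna protein, from 729 to 2570 CPM. PSAF (AT1G31330) and PSAN (AT5G64040), which serve plastocyanin at the lumen side of photosystem I, ranged from 445 to 1990 and from 238 to 1138 CPM. Both were highest in the WT labelled stress and lowest in the p5cs1-4 labelled release library. PSAG (AT1G55670), which like PSAK touches the antenna belt, ranged from 600 to 1870 CPM, and PSAL (AT4G12800) and PSAO (AT1G08380), both near the docking site of LHCII, from 506 to 1691 and from 451 to 1670 CPM. PSBP1 (AT1G06680), an extrinsic subunit of the oxygen-evolving complex, ranged from 941 to 4506 CPM, PSBW (AT2G30570), a small membrane subunit, from 264 to 751 CPM and PSBS (AT1G44575) from 428 to 1111 CPM. PSBS had its lowest value in the aba2-1 labelled release library and its highest in the p5cs1-4 control.

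To use all 9 libraries at once, treatment and genotype were fitted as additive terms (edgeR quasi-likelihood test, Benjamini-Hochberg adjusted p over 19600 genes). Labelled release was below control in 6 members and above it in none at an adjusted p under 0.05, where 3.94% of all genes were called lower and 1.79% higher. The members that fell were PSBY (log2 fold -1.69, SE 0.298, adjusted p = 0.0296), PSBQ1 (-1.90, SE 0.366, adjusted p = 0.0356), LHCA5 (-1.01, SE 0.197, adjusted p = 0.0365), LHCB6 (-1.67, SE 0.328, adjusted p = 0.0366), PSAK (-1.47, SE 0.315, adjusted p = 0.0439) and PSBX (-1.29, SE 0.290, adjusted p = 0.0479). They came from all 4 groups, 1 LHCA, 1 LHCB, 1 PSA and 3 PSB genes. All 42 estimates were below 0, with a median of -0.96 and a range of -3.09 to -0.55, and 31 had an unadjusted p under 0.05, as had 28.1% of all genes. LHCB1.4 (-3.09, SE 0.879, adjusted p = 0.0764) and LHCB2.3 (-2.05, SE 0.554, adjusted p = 0.0692) had the lowest estimates and did not pass. DESeq2 called 32 members lower, with all 6 of these among them, where it called 10.2% of all genes lower and 6.59% higher. The model has no interaction of genotype and treatment, and the edgeR count of members hung on single libraries. The count over all genes moved with it. Without the WT control, the WT labelled release or the p5cs1-4 control no member and 1 gene in all was called lower, and without the p5cs1-4 labelled release no member and no gene was. Without the aba2-1 labelled stress or the p5cs1-4 labelled stress no member was called lower, with 1.02% and 0.971% of genes. It was 1 member without the WT labelled stress (1.66% of genes), 15 without the aba2-1 control (8.88%) and 39 without the aba2-1 labelled release library (9.26%). Without the whole of aba2-1 it was 40, with 11.8% of genes, and without WT or p5cs1-4 no member and no gene was called.

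**Figure D4:**
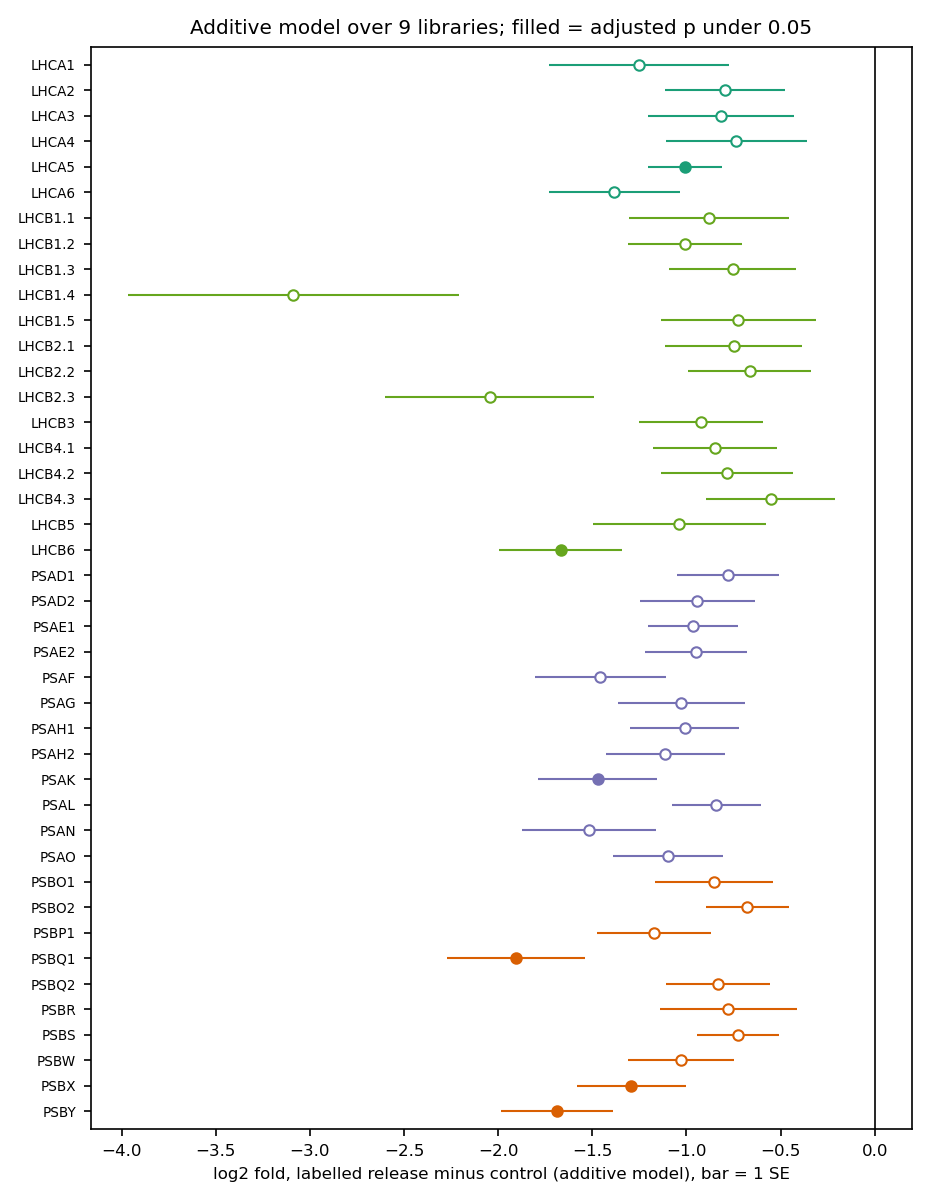
Log2 fold of labelled release minus control (x axis) with 1 SE for each of the 42 genes (y axis) in the additive edgeR model over 9 libraries; colours are the LHCA, LHCB, PSA and PSB groups, and filled points have an adjusted p under 0.05. All 42 estimates lie below 0 and 6 are filled.

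In each of the 6 called genes the 3 labelled release libraries lay below all 3 controls. The same libraries picked these genes, so this adds no support to the calls. PSBY (AT1G67740), a small membrane subunit of photosystem II, had 227, 138 and 197 CPM in the aba2-1, p5cs1-4 and WT labelled release libraries, against 418, 700 and 717 CPM in the controls. LHCB6 (AT1G15820), the CP24 antenna protein, had 442, 291 and 520 CPM in labelled release, against 936, 1462 and 1624 CPM in control. PSAK (AT1G30380), which binds the antenna to photosystem I, had 518, 345 and 549 CPM in labelled release, against 960, 1245 and 1856 CPM in control. None of these ranges overlapped. PSBX had 753, 431 and 1037 CPM against 1613, 1190 and 2655 CPM, and LHCA5 38.2, 31.8 and 40.4 CPM against 54.4, 75.4 and 98.7 CPM, in the same order. Counted in this way, the 3 labelled release libraries lay below all 3 controls for 29 of the 42 members, where this held for 16.1% of all genes with at least 5 CPM. By group these were 2 of 6 LHCA, 8 of 14 LHCB, 11 of 12 PSA and 8 of 10 PSB genes. In the remaining 13, among them LHCA1 to LHCA4, LHCB1.1, LHCB1.3, LHCB1.5, LHCB5 and PSBS, the ranges overlapped. LHCA1 (AT3G54890) shows this: it had 825, 476 and 914 CPM in the aba2-1, p5cs1-4 and WT labelled release libraries, against 869, 1931 and 3084 CPM in the controls, so that the WT labelled release lay above the aba2-1 control.

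Labelled stress set against control, which uses the same control libraries, gave another order of the genotypes. In WT none of the 42 members was at least 2-fold lower or higher, against 4.09% of genes lower and 4.45% higher, and the median log2 ratio was -0.17. In p5cs1-4 18 members were at least 2-fold lower and none higher, against 5.84% of genes lower and 4.03% higher, with a median of -0.94 and all 42 below 0. In aba2-1 8 were at least 2-fold lower and none higher, against 3.57% of genes lower and 4.50% higher, with a median of -0.59 and 41 below 0. On the deposited RPKM scale 7 members in p5cs1-4 and 2 in aba2-1 were at least 2-fold lower. The median log2 ratio of all genes was 0.14 and 0.12 there, and no share of all genes is given on that scale. Root markers summed to 110 CPM in the p5cs1-4 labelled stress library, against 45.1 CPM in its control, and to 49.8 CPM in aba2-1 labelled stress, against 69.4 CPM in its control. In WT they summed to 52.1 CPM, against 31.0 CPM.

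The lowest ratios of labelled stress over control in p5cs1-4 were LHCB1.4 at -2.60, LHCA1 at -1.61, LHCB2.3 at -1.46 and LHCB1.5 at -1.39, and the highest LHCB2.2 at -0.56, LHCA5 at -0.64, LHCA6 at -0.66 and PSAL at -0.68. In aba2-1 the lowest were PSBX at -1.28, LHCB1.3 at -1.21, LHCB4.1 at -1.14 and LHCA2 at -1.13, and the highest PSAH2 at 0.19, LHCB1.1 at -0.07, PSBS at -0.13 and PSAD2 at -0.18. In WT the lowest were LHCB2.3 at -0.81, LHCB1.4 at -0.71, PSAE2 at -0.65 and PSBO2 at -0.46, and the highest PSAD2 at 0.31, LHCA6 at 0.21, LHCB5 at 0.18 and PSAF at 0.15. LHCB1.4 and LHCB2.3 were thus among the 4 lowest in p5cs1-4 and WT, while in aba2-1 LHCB1.4 ranked 6 from the lowest at -1.09. In the additive model edgeR called no gene at all between labelled stress and control, and DESeq2 called 0.194% of genes lower and 0.148% higher, no member among them. In edgeR 8 members had an unadjusted p under 0.05, where 8.25% of all genes had. No member had all 3 labelled stress libraries below all 3 controls, where 3.90% of genes did.

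Labelled release set against labelled stress shares libraries with both comparisons above. In p5cs1-4 8 members were at least 2-fold lower and none higher, against 6.21% of genes lower and 5.98% higher. Their median log2 ratio was -0.50. In WT 24 were at least 2-fold lower and none higher, against 11.6% of genes lower and 10.3% higher, with a median of -1.06 and all 42 below 0. In aba2-1 none was at least 2-fold lower, against 5.64% of genes, and LHCB2.2 was 2-fold higher, where 3.79% of genes were, with a median of 0.20. LHCB2.2 lay at the threshold, and with median-of-ratios scaling or uniquely mapped reads none passed. The aba2-1 medians were 0.53 for LHCA and 0.49 for LHCB genes, beside 0.01 for PSA and 0.17 for PSB genes. Above 0 were 4 of 6 LHCA, 12 of 14 LHCB, 6 of 12 PSA and 6 of 10 PSB genes, and the ranges of the 4 groups overlapped.

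The highest ratios of labelled release over labelled stress in aba2-1 were LHCB2.2 at 1.01, LHCB2.1 at 0.99, LHCB4.1 at 0.89 and LHCB4.2 at 0.88, and the lowest PSBY at -0.60, PSBQ1 at -0.55, PSAF at -0.51 and LHCB6 at -0.41. In p5cs1-4 the lowest were LHCB1.4 at -1.83, LHCB6 at -1.45, PSBY at -1.38 and PSBQ1 at -1.36, and the highest LHCB1.5 at 0.16, LHCA2 at 0.13, LHCB4.2 at 0.07 and PSBR at 0.04. In WT the lowest were LHCB1.4 at -3.61, LHCB2.3 at -2.28, PSBQ1 at -1.94 and LHCA6 at -1.94, and the highest LHCB1.3 at -0.38, PSBS at -0.41, PSBO2 at -0.42 and PSAL at -0.68. PSBQ1 was among the 4 lowest in each genotype. In the additive model, where 2.19% of genes were called lower and 1.54% higher, no member was called with edgeR. An unadjusted p under 0.05 was found in 9 members and in 24.8% of all genes, and DESeq2 called 8 members and 7.45% of all genes lower.

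Set against WT at the same treatment, aba2-1 was lower in the control and labelled stress libraries and close to WT in labelled release. In labelled release none of 42 members was at least 2-fold lower or higher, against 5.27% of genes lower and 4.80% higher. The members' median log2 ratio was -0.08, and 0.10 on the deposited RPKM scale, where that of all genes was 0.15. In labelled stress 38 were at least 2-fold lower and none higher, against 6.49% of genes lower and 6.65% higher, with a median of -1.53. In control 19 were at least 2-fold lower and none higher, against 9.48% of genes lower and 8.13% higher, with a median of -0.99. In both of these treatments all 42 ratios were below 0. RAB18 stood at 252 CPM in the aba2-1 control, against 31.4 CPM in the WT control, and root markers summed to 69.4 CPM, against 31.0 CPM. The median by group in the control libraries was -1.11 for LHCA, -1.11 for LHCB, -0.96 for PSA and -0.91 for PSB genes.

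The lowest ratios of aba2-1 over WT in control were LHCB1.4 at -3.04, LHCB2.3 at -2.04, LHCA1 at -1.83 and LHCB1.5 at -1.36, and the highest LHCA6 at -0.58, PSAD1 and LHCB1.3 at -0.64 each and PSAH2 at -0.69. In labelled stress the lowest were LHCB1.4 at -3.41, LHCA1 at -2.21, LHCB4.2 at -2.11 and LHCA2 at -1.94, and the highest PSAH2 at -0.64, PSBS at -0.71, PSBY at -0.78 and LHCA5 at -0.81. In labelled release the lowest were LHCB1.3 at -0.60, PSAD2 at -0.55, PSBS at -0.52 and PSAL at -0.49, and the highest LHCA6 at 0.63, LHCB2.3 at 0.63, LHCB5 at 0.52 and LHCB1.4 at 0.38. LHCB1.4 thus lay below WT in control and labelled stress and above it in labelled release. The 3 aba2-1 libraries lay below all 3 WT libraries for 8 members (LHCA1, LHCA2, LHCB1.3, LHCB1.5, LHCB4.2, PSAD2, PSBO2 and PSBS), where 5.95% of genes did. In the additive model edgeR called no gene at all between aba2-1 and WT. An unadjusted p under 0.05 was found in 32 members and in 14.7% of all genes, and DESeq2 called 11 members and 1.45% of all genes lower.

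In p5cs1-4 the distance to WT was largest in labelled stress. There 27 of 42 members were at least 2-fold lower and none higher, against 6.53% of genes lower and 5.94% higher. Their median log2 ratio was -1.08, and all 42 lay below 0. On the deposited RPKM scale 17 members were at least 2-fold lower. The median of all genes was 0.14 there, and no share of all genes is given on that scale. In labelled release 1 member, PSBX, was at least 2-fold lower and none higher, against 1.33% of genes lower and 1.80% higher, with a median of -0.51 and all 42 below 0. In control PSBX was again the 1 member at least 2-fold lower, against 2.69% of genes lower and 3.82% higher, with a median of -0.33 and 35 below 0. In both labelled release and control the members' count was thus near the background. PSBX had 431, 741 and 1190 CPM in p5cs1-4 labelled release, labelled stress and control, against 1037, 2253 and 2655 CPM in WT, and so was lower in the mutant at every treatment. Root markers summed to 79.8, 110 and 45.1 CPM in p5cs1-4 and to 47.7, 52.1 and 31.0 CPM in WT, in the same order.

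The lowest ratios of p5cs1-4 over WT in labelled stress were LHCB1.4 at -2.77, LHCA1 at -2.16, LHCB4.2 at -1.85 and PSBX at -1.60, and the highest PSBS at -0.32, PSAH2 at -0.39, LHCA5 at -0.63 and PSBO2 at -0.64. PSBS is the sensor of the lumen pH that triggers the dissipation of excess light. In labelled release the lowest were PSBX at -1.27, LHCB1.4 at -0.98, LHCA1 at -0.94 and LHCB6 at -0.83, and the highest LHCA6 at -0.05, PSAH2 at -0.07, LHCB4.3 at -0.10 and LHCB5 at -0.11. In control the lowest were PSBX at -1.16, PSBP1 at -0.91, LHCB4.2 at -0.90 and PSAE2 at -0.88, and the highest PSAH2 at 0.49, PSAD2 at 0.36, PSBS at 0.24 and LHCB5 at 0.18. No member had all 3 p5cs1-4 libraries below all 3 WT libraries, where 5.04% of genes did. Between p5cs1-4 and WT the additive model called no gene at all with edgeR. Here 15 members and 10.8% of all genes had an unadjusted p under 0.05, and DESeq2 called 4 members and 0.388% of all genes lower.

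**Figure D5:**
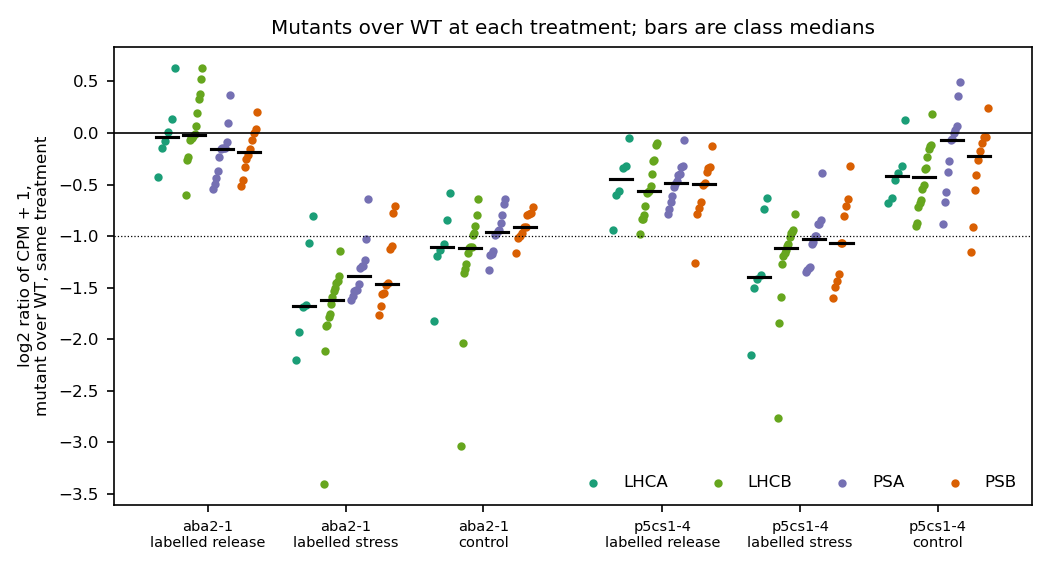
Log2 ratio of CPM + 1 of each mutant over WT at the same treatment (y axis) for the 42 genes, by treatment (x axis) and by LHCA, LHCB, PSA and PSB group (colours); bars are group medians and the dotted line marks 2-fold lower. The LHCB median is -1.62 in aba2-1 labelled stress and -0.02 in aba2-1 labelled release.

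Other genes of photosynthesis, in lists fixed by function, were read in the additive model for labelled release minus control, beside the background of 3.94% lower and 1.79% higher. Of 25 chlorophyll synthesis genes tested, 11 fell and none rose, among them GSA2 (log2 fold -1.42, adjusted p = 0.0147) and HEMA1 (-1.39, adjusted p = 0.0368), which make the precursor 5-aminolevulinate, and the magnesium chelatase genes CHLI1, CHLI2 and CHLD. At least 2-fold lower in labelled release than in control were 1 of the 25 in aba2-1, 13 in p5cs1-4 and 10 in WT, beside 5.62%, 11.8% and 14.0% of all genes. Of 15 genes of thylakoid electron transport and ATP synthase, 3 fell: the ferredoxin genes FD1 (-1.96) and FD2 (-1.62), which accept electrons from photosystem I, and ATPD (-1.40). Of 10 other photosystem proteins and assembly factors, 3 fell, PSBTN (-1.64), PPL1 (-1.58) and PSB28 (-1.41). Of 6 genes of xanthophyll synthesis and cycle, 3 fell, and these were the lutein synthesis genes LUT1 (-1.29), LUT2 and LUT5 (-0.85). Among 9 light-harvesting-like proteins, 2 fell, LIL3:1 (-1.46) and OHP1 (-1.53), and of 8 genes of antenna targeting and phosphorylation 1 fell, LTD (-1.28). Chlorophyll breakdown went in both directions, with CLH1 (-2.54) and SGRL (-1.49) lower and the pheophorbide a oxygenase gene PAO higher among 11 genes. PAO had 76.9, 153 and 145 CPM in the aba2-1, p5cs1-4 and WT labelled release libraries, against 60.9, 57.4 and 52.2 CPM in the controls. These list calls hung on single libraries as the members' did. Without the WT control, the WT labelled release, the p5cs1-4 control or the p5cs1-4 labelled release no gene of any of these lists was called. The 11 chlorophyll synthesis genes became 2 without the aba2-1 labelled stress or the p5cs1-4 labelled stress, where 1.02% and 0.971% of all genes were called lower. They became 4 without the WT labelled stress (1.66% of all genes), 16 without the aba2-1 control (8.88%) and 18 without the aba2-1 labelled release library (9.26%).

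None of 9 transcription factors of chloroplast genes, 12 root markers, 2 seed markers or 11 plastid-encoded photosystem genes passed this test. Without the aba2-1 control library 2 of the transcription factors, 3 root markers and 1 seed marker were called higher. Lower were 1 transcription factor and 1 plastid-encoded gene. In that fit 1242 of 19660 genes were called higher and 8.88% lower. The GLK1 regulator of antenna genes had 83.2, 68.4 and 133 CPM in the aba2-1, p5cs1-4 and WT labelled release libraries, against 162, 136 and 136 CPM in the controls. The phytochrome-interacting factor gene PIF3 had 33.7, 110 and 107 CPM in labelled release, against 39.3, 24.0 and 19.1 CPM in control. The light-stress antenna relative ELIP1 had 6.62, 86.8 and 112 CPM, against 10.1, 1.59 and 0.70 CPM. PIF3 and ELIP1 were thus higher in the p5cs1-4 and WT labelled release libraries and not in aba2-1. The 20 plastid-encoded photosystem subunits, read from polyadenylated RNA, summed to 377, 420 and 155 CPM in aba2-1 labelled release, labelled stress and control, to 289, 408 and 353 CPM in p5cs1-4 and to 139, 122 and 177 CPM in WT. In aba2-1 the 6 of them with at least 5 CPM all had a labelled release level 2-fold or more above control, where 4.56% of all genes had.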

How the data were processed

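Estimated counts, RPKM and the multi-mapping fraction of 33518 genes were used as the authors deposited them, 1 table per library, per the file headers. The deposited estimated count divides multi-mapping reads among genes. The deposited RPKM is per length and library total, and the deposited fraction gives the part of a gene's reads that is multi-mapping. CASAVA 1.6 and TAIR10 stand in the submitters' processing notes. Their role, the aligner, the counter and strand use are not given in the sources used here.

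Counts were rounded and scaled to CPM with TMM factors. In each of 15 library pairs, ratios were taken on the log2(CPM + 1) scale and genes at least 2-fold apart with at least 5 CPM in either library were counted, with no test. Folds have exact 95% conditional intervals. An additive model was fitted with edgeR 4.0.16 (4 residual df, genes averaging 1 CPM or more), and tested on simulated data. The simulated counts had a set spread between libraries (dispersion 0.05) and the same fold in every genotype, unlike the members. Of simulated 2-fold changes 48% were called and of 4-fold changes 100%, with 9 false calls. This does not show how well the model works for folds that differ by genotype. Alternatives used DESeq2 1.42.0, limma 3.58.1 and other scalings, floors and library subsets. The medians of members run over those with at least 5 CPM in any library. Coding identity is for the most similar pair of isoforms, and the start is that of the gene in the TAIR10.1 annotation.

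Members and lists were chosen with earlier results of these data known. Named are, in each comparison, the 4 highest and the 4 lowest members by ratio, all copies of gene families, and list members that passed the test or had the largest ratios. GLK1 and the label checks P5CS1, PRODH1 and RAB18 are also named, GLK1 after its values were seen. Depth ran from 4898426 to 18273148 reads per library.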

Additional observations from a re-analysis of the deposited data

Results flagged for a closer look

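Between labelled release and labelled stress, the median log2 ratio of the 42 members was 0.20 in aba2-1, -0.50 in p5cs1-4 and -1.06 in WT. The aba2-1 median was 1.26 above that of WT and 0.70 above that of p5cs1-4, and it had the opposite sign. These differences were not tested, as each ratio rests on 1 library per group. In aba2-1 28 of the 42 members were above 0, and in WT none was.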

How the results depend on the processing

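No paired analysis was possible because the labels carry no replicate numbers that pair libraries and each group is 1 library; the additive model compares treatments within genotype by its genotype term. Most values kept their direction and size under another pseudocount (0.1), with the floor removed or raised to 20 CPM, and with median-of-ratios scaling, reads that map to 1 place only and scaling without the members. The deposited RPKM, which lack TMM factors, moved the median of all genes by -0.02 to 0.19. With RPKM the member medians were -1.09 in WT, -0.13 in aba2-1 and -1.20 in p5cs1-4 for labelled release over control, -0.084 in WT and -0.75 in p5cs1-4 for labelled stress over control, -0.85 and -1.35 for aba2-1 over WT in control and labelled stress, and -0.90 for p5cs1-4 over WT in labelled stress. The median of aba2-1 over WT in labelled release changed sign with RPKM, to 0.10, which lies below the 0.15 of all genes on that scale. Counts of members at least 2-fold lower with RPKM were 0 for aba2-1 labelled release over control, 2 for aba2-1 labelled stress over control, 7 for p5cs1-4 labelled stress over control and 17 for p5cs1-4 over WT in labelled stress. Shares of all genes are not given for 2-fold counts with RPKM or the other scalings, so such counts have no background beside them. The count of members 2-fold higher in aba2-1 labelled release over labelled stress was 2 with RPKM and 0 with median-of-ratios scaling or uniquely mapped reads. The count of p5cs1-4 over WT in labelled release was 2 with median-of-ratios scaling. In the additive model DESeq2 called 32 members lower for labelled release minus control, 8 for labelled release minus labelled stress, 11 for aba2-1 minus WT and 4 for p5cs1-4 minus WT, against 6, 0, 0 and 0 with edgeR. Of all genes DESeq2 called 10.2%, 7.45%, 1.45% and 0.388% lower in these contrasts. In edgeR fits without single libraries, 0 to 39 members were called lower in labelled release against control, and 0 to 16 against labelled stress. Both were highest without the aba2-1 labelled release library, where 9.26% and 6.28% of all genes were called lower. Without the whole of aba2-1 the members called were 40 and 11, with 11.8% and 5.58% of all genes. Without WT or p5cs1-4 the first was 0, as was the count over all genes. The causes of these moves were not tested. All 42 estimates of labelled release minus control stayed below 0 in each of these settings. Pooled RNA and 1 library per group limit every comparison, and LHCB4.3, at 7.59 to 25.8 CPM, had the fewest reads of the members in every library.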
